A study of Mus musculus with 217 samples.

Results

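Krüppel-like factors are zinc finger proteins that bind GC-rich DNA, and 10 genes of the family were followed over the day in mouse striatum: Klf2, Klf3, Klf4, Klf6, Klf7, Klf9, Klf10, Klf13, Klf15 and Klf16. They were named, with earlier results of these data known, from the 12270 genes listed in at least 1 of 3 tables of expression values. They are not the whole family, since Klf5, Klf11 and Klf12, among others, were set aside as relatives. All 10 were listed in nucleus accumbens (NAc, 11867 genes) and dorsomedial striatum (DMS, 12101 genes), and 9 in dorsolateral striatum (DLS, 11394 genes), where Klf4 was not listed. Bulk RNA came from bilateral punches of 1 mm taken from C57BL/6J mice of about 10 weeks, with no treatment or transgene, housed in 12 h of light and 12 h of dark with free access to food. Males and females were killed at Zeitgeber time (ZT, hours after lights on) 2, 6, 10, 14, 18 or 22, so ZT14, ZT18 and ZT22 fall in the dark. NAc had 77 libraries, DMS 70 and DLS 70, with 5 to 7 per sex and time, from 93 animals. Since each label carries an animal number, the libraries of a group come from separate mice, and 47 animals gave all 3 regions.

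Members of the family share zinc fingers at the end of the protein that recognise GC boxes and CACCC boxes, and they differ in the partners they recruit, so that some mainly activate and others mainly repress. Several are induced quickly by hormones, growth factors or blood flow, and Klf9, Klf10 and Klf15 are known as outputs of the circadian clock in other tissues. In brain the family is known for its part in axon growth, in the maturation of neurons and in the response to glucocorticoids, whose blood level in mice is highest around lights off.

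Values are log2 of normalised counts, scaled by the submitters within each region, so levels in different regions are set side by side without a test. In NAc the values are not log2 of whole normalised reads plus 1, as they are in DMS and DLS, and whether a further adjustment was made there is not given in the sources used here. Reads summed over listed genes lay between 35711640 and 57468484 per library in DMS and between 29719087 and 56799764 in DLS, and the depth in NAc is unknown. All 7 fixed markers of medium spiny neurons, the main striatal cell type, were listed in every region, with summed levels of 15.47 to 16.81 (log2) in NAc, 16.97 to 17.65 in DMS and 16.66 to 17.42 in DLS. The DMS libraries fell into 37 with a low and 33 with a high share of mitochondrial ribosomal RNA, with a gap between 29.9 and 35.3%, and the high class made up 3 of 12 libraries at ZT2 but 10 of 12 at ZT18. DMS results therefore come from a fit with a term for this class, and values without it are given where a call changed. In bulk punches, fewer cells of a type and less RNA per cell cannot be told apart.

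Per kilobase of exon, Klf9, Klf16 and Klf13, which belong to a branch of the family that recruits the Sin3a corepressor, had the highest mean levels in every region, in that order. In NAc Klf9 reached 9.27 ± 0.28 (log2 normalised count per kb, SD, n = 77), in DMS 9.95 ± 0.17 (n = 70) and in DLS 9.79 ± 0.17 (n = 70). Klf16 had 9.09 ± 0.23, 9.37 ± 0.15 and 9.09 ± 0.16, and Klf13 8.61 ± 0.35, 9.13 ± 0.20 and 8.55 ± 0.19. In NAc Klf9 and Klf16 differed by less than 1 SD, while in DLS neighbours among these 3 were further apart than 1 SD. Klf15 came next everywhere, at 7.38 ± 0.30, 7.72 ± 0.25 and 7.16 ± 0.26. Klf6 (7.11 ± 0.38, 7.27 ± 0.26 and 7.07 ± 0.26), Klf10 (7.03 ± 0.43, 7.09 ± 0.30 and 7.15 ± 0.32) and Klf7 (6.57 ± 0.42, 7.16 ± 0.42 and 6.39 ± 0.24) followed, and Klf6 and Klf10 did not differ beyond their spread in any region. Klf2 (6.10 ± 0.76, 6.65 ± 0.48 and 6.21 ± 0.60) and Klf3 (5.96 ± 0.24, 6.63 ± 0.11 and 6.25 ± 0.16) had like means, but Klf2 varied far more between libraries. Klf4 was lowest, at 4.62 ± 1.00 in NAc and 5.32 ± 0.62 in DMS, which rests on 33 to 368 reads per DMS library.

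**Figure D1:**
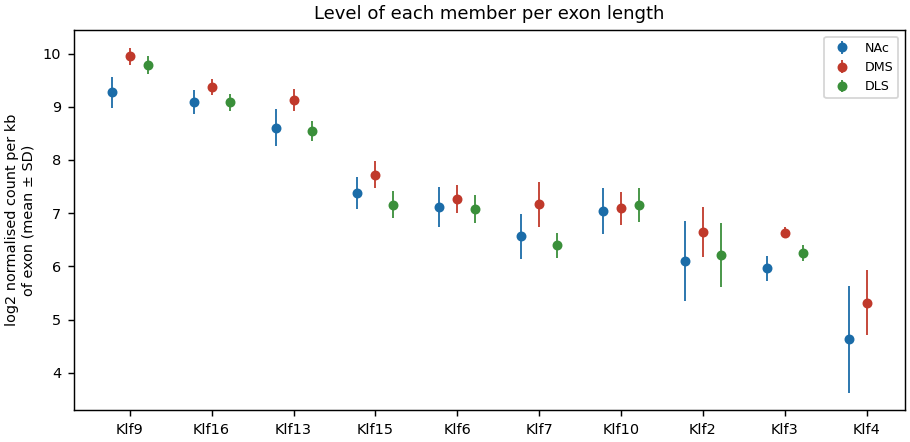
Mean level of each member in log2 normalised count per kilobase of exon (points) with the SD over libraries (bars), for 77 NAc, 70 DMS and 70 DLS libraries. Klf9, Klf16 and Klf13 lie highest in each region and Klf4 lowest, with the regions normalised separately.

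The promoters of Klf9 and Klf15, which peaked around lights off together, are shown because both genes are known targets of glucocorticoids and outputs of the clock. Each run is the 250 bases before the RefSeq transcription start (build GRCm38.p6, plus strand), in lower case with matches to 2 motifs in capitals: the E-box CACGTG, bound by clock activators, and the GC box GGGGCGGGG, bound by Krüppel-like and Sp factors. The Klf9 window is chr19:23140976-23141225 and the Klf15 window chr6:90462326-90462575.
Klf9: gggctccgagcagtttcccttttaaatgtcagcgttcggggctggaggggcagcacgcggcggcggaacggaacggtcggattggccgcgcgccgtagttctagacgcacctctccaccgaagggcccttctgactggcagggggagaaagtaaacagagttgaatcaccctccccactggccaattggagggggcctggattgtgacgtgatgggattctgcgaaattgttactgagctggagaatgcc
Klf15: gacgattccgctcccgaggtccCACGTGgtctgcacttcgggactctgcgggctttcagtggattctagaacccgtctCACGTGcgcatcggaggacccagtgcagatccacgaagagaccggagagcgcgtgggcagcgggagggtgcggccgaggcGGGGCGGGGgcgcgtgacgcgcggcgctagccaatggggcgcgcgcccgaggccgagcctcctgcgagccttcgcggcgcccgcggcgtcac
The Klf15 window held 2 E-boxes, at 228 to 223 and 172 to 167 bases before the start, and a GC box at 92 to 84 bases, while the Klf9 window held no match to either. Promoter windows were found in the RefSeq table for 8 of the 10 members (not Klf10 and Klf16). Among those 8 the E-box was present in Klf4, Klf6 and Klf15, against 6.02% of all 32851 promoters, and the GC box in Klf2, Klf3, Klf4, Klf13 and Klf15, against 10.4%. The members' windows were richer in G and C (59.2 to 78.4%) than the median promoter (52.4%). None of the 8 held the D-box TTANGTAA, the palindromic glucocorticoid response element, the Rev-erb and Ror element TAGGTCA, the CACCC box CCACACCC, the serum response element or the cAMP response element TGACGTCA, which were found in 2.06, 0.387, 2.23, 3.20, 0.423 and 1.55% of promoters. All motifs were searched on both strands, and no match says only that these letters are absent from this window.

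Daily rhythm was tested in limma with a cosine and sine of 24 h. The fitted curve rises above its mean by the amplitude (log2), and the fold compares its peak with its trough. Genes with a Benjamini-Hochberg adjusted p under 0.05, taken over all listed genes, are called rhythmic. In DMS 7 of 10 members were rhythmic (Klf2, Klf3, Klf4, Klf6, Klf9, Klf15 and Klf16), where 25.2% of all genes were. In DLS 5 of 9 were (Klf2, Klf3, Klf9, Klf15 and Klf16), against 21% of all genes. In NAc only Klf9 was, against 2.56%. The median amplitude of the listed members was 0.14 in NAc, 0.13 in DMS and 0.12 in DLS, and that of all genes 0.07, 0.07 and 0.07. Klf7, Klf10 and Klf13 passed in no region. The plot of amplitude and peak time shows the rhythmic members in 2 groups: Klf2, Klf4, Klf6, Klf9 and Klf15 peaked between 10.9 and 16.4 h, around lights off or early in the dark, and Klf3 and Klf16 between 22.7 and 5.92 h, from late in the dark to the middle of the light.

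**Figure D2:**
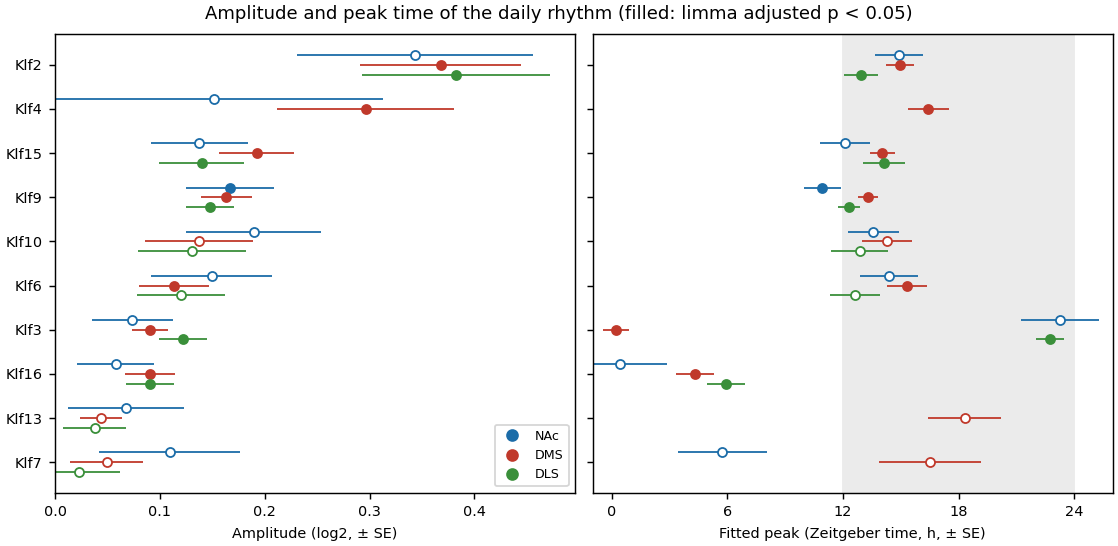
Left, amplitude of the fitted 24 h rhythm (log2, ± SE) of each member in NAc, DMS and DLS, with bars stopped at 0; right, the fitted peak time (± SE, grey for the dark phase), drawn only where its SE was under 3 h. Filled points passed limma's adjusted p of 0.05; Klf2 has the largest amplitude in each region and the filled peaks of Klf3 and Klf16 lie apart from the others.

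Klf9, induced by glucocorticoids and thyroid hormone and known for restraining growth of mature neurons, was the only member rhythmic in all 3 regions. In DLS its median was highest at ZT14, where the 12 libraries ran from 11.93 over a median of 12.28 to 12.51 (log2), and lowest at ZT2, where 11 libraries ran from 11.66 over 11.92 to 12.24. No ZT2 library exceeded the ZT14 median, though 5 of the 11 reached the ZT14 range. The fitted fold was 1.23 with an amplitude of 0.15 ± 0.02 (SE, n = 70) and a peak at 12.3 ± 0.58 h (limma adjusted p 3.61e-06).
In DMS the highest median was at ZT10 (12.15, 12.35 and 12.49 as lowest, median and highest of 11) and the lowest at ZT2 (11.87, 12.10 and 12.32 of 12). The ranges overlapped, with 4 of the 12 ZT2 libraries inside the ZT10 range and none above its median. The fold was 1.25 with a peak at 13.3 ± 0.51 h (amplitude 0.16 ± 0.02, adjusted p 1.90e-06). In NAc the median was highest at ZT10 (11.46, 11.73 and 11.93, n = 12) and lowest at ZT22 (10.71, 11.36 and 11.79, n = 14), and 1 ZT22 library exceeded the ZT10 median. The NAc fold was 1.26 with a peak at 10.9 ± 0.96 h (amplitude 0.17 ± 0.04, adjusted p 0.0333).

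The NAc call of Klf9 was near the threshold. Without 1 of 5 libraries (female ZT22 numbers 3, 4 and 50, male ZT10 numbers 17 and 18) it did not pass, with adjusted p up to 0.0624. The log2 of the summed levels of Slc17a7 and Tbr1, markers of cortical tissue, had a median of 12.1 at ZT14 in NAc (7.64 to 13.4) and 7.91 at ZT2 (6.14 to 13.4), and 0 of the 2 genes passed the test for a rhythm. With that sum as a covariate, added after seeing the data, Klf9 had an amplitude of 0.15 and an adjusted p of 0.0732. The sum of 12 endothelial markers had a median of 12.84 at ZT2 (12.65 to 12.98) and 12.66 at ZT10 (12.27 to 12.88) in NAc, and with it as a covariate, also added later, Klf9 had an amplitude of 0.15 and an adjusted p of 0.115. In fits with time as 6 levels (0.222), with libraries scaled to an equal sum (0.341) and in females (0.368) or males (0.517) alone it did not pass either. In DLS, scaling libraries to an equal sum raised the adjusted p of Klf9 to 0.592, and to 0.162 (amplitude 0.09) with male ZT6 number 13 left out, a library that this scaling moves by -2.35.

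Klf15, a glucocorticoid target that controls amino acid and nitrogen metabolism in liver and muscle, followed Klf9. In DMS its 11 libraries at ZT14 ran from 9.16 over a median of 9.55 to 9.77, and its 12 at ZT22 from 8.79 over 8.98 to 9.39. The groups were nearly apart, since 2 ZT22 libraries reached the ZT14 range and none its median. The fitted fold was 1.31 and the peak 14.0 ± 0.65 h (amplitude 0.19 ± 0.04, limma adjusted p 1.71e-04). This call was lost in the low-share class alone (0.103).
In DLS the medians ranged from 8.47 at ZT2 (8.07 to 8.92, n = 11) to 8.85 at ZT14 (8.50 to 9.09, n = 12). Of the 11 ZT2 libraries, 5 lay inside the ZT14 range and 1 above its median. The DLS fold was 1.21 with a peak at 14.1 ± 1.1 h (amplitude 0.14 ± 0.04, adjusted p 0.0260). That call was lost without male ZT2 number 33 (adjusted p 0.0507), with time as 6 levels (0.0517), with the mitochondrial ribosomal RNA share as a covariate (0.0692), with libraries scaled to an equal sum (0.482), and in females (0.260) or males (0.195) alone. In NAc Klf15 had a fold of 1.21 and a peak at 12.1 ± 1.31 h but did not pass (amplitude 0.14 ± 0.05, adjusted p 0.202). Its NAc medians were 9.06 at ZT10 (8.48 to 9.37, n = 12) and 8.66 at ZT2 (8.12 to 9.11, n = 13).

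**Figure D3:**
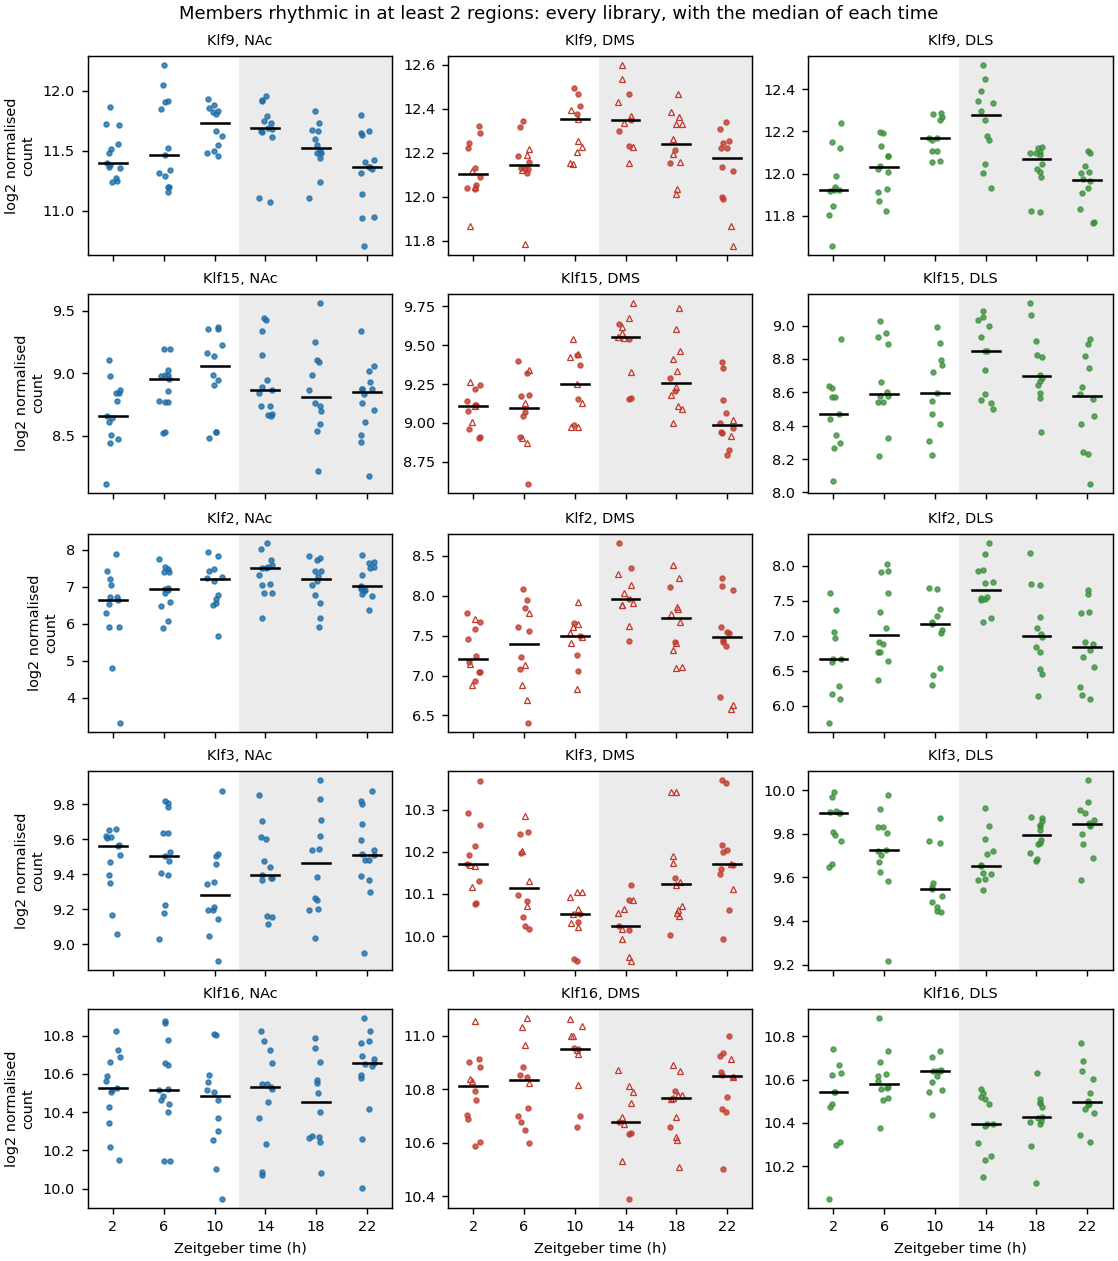
Every library (points) of the 5 members rhythmic in at least 2 regions, as log2 normalised count against Zeitgeber time, with the median of each time (bar), the dark phase in grey and open triangles for DMS libraries of high mitochondrial ribosomal RNA share. Klf9, Klf15 and Klf2 have their highest medians at ZT10 or ZT14, Klf3 has its highest at ZT2 and its lowest at ZT10 or ZT14, and libraries of different times overlap in every panel.

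Klf2 and Klf4 are known for the quiescent, anti-inflammatory state of endothelial cells under flow, and Klf6 and Klf10 are early response genes, Klf6 of injury and Klf10 of transforming growth factor beta. Klf2 had the largest amplitude of the family in each region, although it was among the least abundant members. In DLS it ran from 7.195 over a median of 7.65 to 8.33 in the 12 libraries at ZT14 and from 5.75 over 6.66 to 7.61 in the 11 at ZT2. Only 2 of the 11 ZT2 libraries reached the ZT14 range. The fold was 1.70 and the peak 12.9 ± 0.88 h (amplitude 0.38 ± 0.09, limma adjusted p 0.00347). This DLS call was lost in males alone (0.391) and with libraries scaled to an equal sum (0.0647).
In DMS Klf2 had a median of 7.96 at ZT14 (7.43 to 8.66, n = 11) and 7.21 at ZT2 (6.88 to 7.78, n = 12), with 5 of the 12 ZT2 libraries inside the ZT14 range. The DMS fold was 1.67 and the peak 14.96 ± 0.73 h (amplitude 0.37 ± 0.08, adjusted p 7.13e-04). This call was lost in females alone (0.0524) and in the low-share class alone (0.143). In NAc the amplitude was of like size, 0.34 ± 0.11 with a peak at 14.9 ± 1.25 h, but did not pass (adjusted p 0.176): 13 libraries ran from 6.15 over 7.50 to 8.19 at ZT14 and 13 from 3.31 over 6.63 to 7.88 at ZT2.

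Klf4 passed in DMS with a fold of 1.51 and a peak at 16.4 ± 1.07 h (amplitude 0.30 ± 0.08, adjusted p 0.0191), and this rested on the class term: without it the adjusted p was 0.323, and in a fit to recovered reads (voom) it was 0.0530. Over all libraries its DMS medians were highest at ZT22 (7.15, 5.93 to 8.15) and lowest at ZT6 (6.70, 5.93 to 7.76), but the class was uneven, with 10 of the 12 ZT22 libraries in the low class, where Klf4 was higher. Within each class the highest median was at ZT14, 7.99 in 4 libraries of the low class (7.45 in 10 at ZT22) and 6.90 in 7 of the high class (6.30 in 2 at ZT22). Fitted in the low or the high class alone, Klf4 did not pass (limma adjusted p 0.365 and 0.0782). In NAc Klf4 had an amplitude of 0.15 ± 0.16 (adjusted p 0.837). Klf6 passed in DMS with a fold of 1.17 and a peak at 15.3 ± 1.05 h (amplitude 0.11 ± 0.03, adjusted p 0.0250), with medians of 9.69 at ZT14 (9.28 to 10.03) and 9.20 at ZT2 (8.86 to 9.60). Klf6 was higher in the high class, which held 7 of 11 libraries at ZT14 and 3 of 12 at ZT2. Within the low class the medians were 9.51 (n = 4) and 9.15 (n = 9) at these times, and within the high class 9.79 (n = 7) and 9.54 (n = 3). Fitted in the low or the high class alone, Klf6 did not pass (limma adjusted p 0.323 and 0.118). The Klf6 call was lost without male ZT14 number 21 or 23 (adjusted p up to 0.0589). In DLS Klf6 did not pass (amplitude 0.12 ± 0.04, adjusted p 0.0789), but did without female ZT2 number 9 (0.0124), with the cortical sum as a covariate (0.0221) and in a fit to recovered reads (0.0492), and in NAc it had 0.15 ± 0.06 (0.315).
Klf10, a clock output in liver, passed in no region, with amplitudes of 0.19 ± 0.06 in NAc, 0.14 ± 0.05 in DMS and 0.13 ± 0.05 in DLS (adjusted p 0.205, 0.09999 and 0.133). Its fitted peaks lay at 13.6, 14.3 and 12.9 h, close to those of Klf2 and Klf6, and in DMS it passed without the class term (adjusted p 0.0403) and with a term for animals numbered 31 or higher in its place (0.0480).

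Endothelial markers did not all follow Klf2 in time. Of the 12 markers 4, 7 and 7 were rhythmic in NAc, DMS and DLS, against 2.56, 25.2 and 21% of all genes. Those with a peak in the light numbered 1, 4 and 4, and those with a peak in the dark 3, 3 and 3. Any peak in the dark phase counts here, however close to lights on. Among the rhythmic markers, 3 that passed in all regions were picked after seeing their values. The tight-junction gene Cldn5 peaked at 22.4, 23.7 and 23.05 h in NAc, DMS and DLS (folds 1.83, 1.69 and 1.63), and the growth factor receptor Kdr at 0.201, 23.9 and 0.299 h (folds 1.46, 1.47 and 1.64), while the surface protein gene Ly6c1 peaked at 16.6, 15.4 and 15.4 h (folds 1.44, 1.24 and 1.31). All 9 of these rhythms passed in limma. Cldn5 in each region and Kdr in DMS are thus counted as dark, though they peaked near lights on, away from the fitted peaks of Klf2. Across libraries, after time of day, sex and class were removed, Klf2 had a Pearson r with the mean of 12 endothelial markers of 0.01 in the 77 NAc libraries, -0.21 in the 70 of DMS and -0.08 in the 70 of DLS, and Klf4 -0.01 in NAc and 0.02 in DMS. None of the 15 relations of this family, those within number ranges and DMS classes included, passed (lowest adjusted permutation p 0.580).

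Klf3, a repressor that recruits the corepressor CtBP, had the opposite phase to Klf9. In DLS its 11 libraries at ZT2 ran from 9.65 over a median of 9.89 to 9.99, and its 11 at ZT10 from 9.44 over 9.55 to 9.87. Of the 11 ZT10 libraries, 3 reached the ZT2 range. The fold was 1.18 with a peak at 22.7 ± 0.71 h (amplitude 0.12 ± 0.02, limma adjusted p 1.88e-04). This call was lost in males alone (0.0648) and with libraries scaled to an equal sum (0.206).
In DMS Klf3 was highest at ZT2 (10.08, 10.17 and 10.37, n = 12) and lowest at ZT14 (9.94, 10.02 and 10.12, n = 11), and 3 of the 11 ZT14 libraries reached the ZT2 range. The DMS fold was 1.13 with a peak at 0.201 ± 0.67 h (amplitude 0.09 ± 0.02, adjusted p 1.57e-04). This DMS call was lost in males alone (0.0668) and in the high-share class alone (0.118). In NAc its peak fell at 23.3 ± 2.04 h with an amplitude of 0.07 ± 0.04 that did not pass (adjusted p 0.528), and medians were 9.56 at ZT2 (9.06 to 9.66) and 9.28 at ZT10 (8.90 to 9.87). The Klf3 locus overlaps C230096K16Rik on the same strand and Gm20033 on the other, so reads shared with them are uncertain.

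Klf16, also known as a dopamine receptor regulating factor, peaked in the light. In DLS its libraries at ZT10 ran from 10.44 over a median of 10.64 to 10.73 (n = 11) and at ZT14 from 10.15 over 10.39 to 10.56 (n = 12). The step between these adjacent times left 5 of the 12 ZT14 libraries in the ZT10 range and none above its median. The fitted fold was 1.13 with a peak at 5.92 ± 0.98 h (amplitude 0.09 ± 0.02, limma adjusted p 0.00743). That call was lost with libraries scaled to an equal sum (0.734, and 0.0554 without male ZT6 number 13). It was also lost in females (0.147) or males (0.0966) alone.
In DMS the same step went from 10.95 at ZT10 (10.66 to 11.06, n = 11) to 10.68 at ZT14 (10.39 to 10.87, n = 11), with a fold of 1.13 and a peak at 4.31 ± 0.97 h (amplitude 0.09 ± 0.02, adjusted p 0.00908). Without the class term the DMS adjusted p was 0.0695, in the low-share class alone 0.502, in females alone 0.293 and in males alone 0.0689. In NAc Klf16 did not pass (amplitude 0.06 ± 0.04, adjusted p 0.642), with medians of 10.65 at ZT22 (10.00 to 10.89) and 10.45 at ZT18 (10.08 to 10.79).

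Klf7, which promotes axon growth, and Klf13, a relative of Klf9, showed no rhythm past the threshold: Klf7 had amplitudes of 0.11 ± 0.07, 0.05 ± 0.03 and 0.02 ± 0.04 in NAc, DMS and DLS (limma adjusted p 0.620, 0.518 and 0.903), and Klf13 0.07 ± 0.06, 0.04 ± 0.02 and 0.04 ± 0.03 (0.755, 0.217 and 0.609). Both differed strongly between the DMS classes. Klf7 was lower by 0.76 ± 0.05 (log2, SE) in the 33 libraries of high mitochondrial ribosomal RNA share than in the 37 of low share (means 9.80 and 10.54), and Klf13 by 0.33 ± 0.03 (11.87 and 12.18). Such a difference was common, with 78.1% of all genes past the threshold, and 7 of 10 members passed. Klf4 (lower by 0.83 ± 0.12), Klf2 (lower by 0.23 ± 0.11) and Klf9 (lower by 0.11 ± 0.03) were also lower in the high class, Klf6 (0.28 ± 0.05) and Klf16 (0.12 ± 0.03) higher, and Klf3 (0.02 ± 0.02), Klf10 (0.00 ± 0.07) and Klf15 (0.05 ± 0.05) did not pass. Because the class was unevenly spread over the day, the raw DMS medians of Klf7 swung from 10.55 at ZT22 to 9.92 at ZT10. Without the class term 51.3% of all genes were rhythmic in DMS and Klf7 passed at an adjusted p of 0.0496, with a fitted peak at 1.52 h against 16.5 h with the term.

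**Figure D4:**
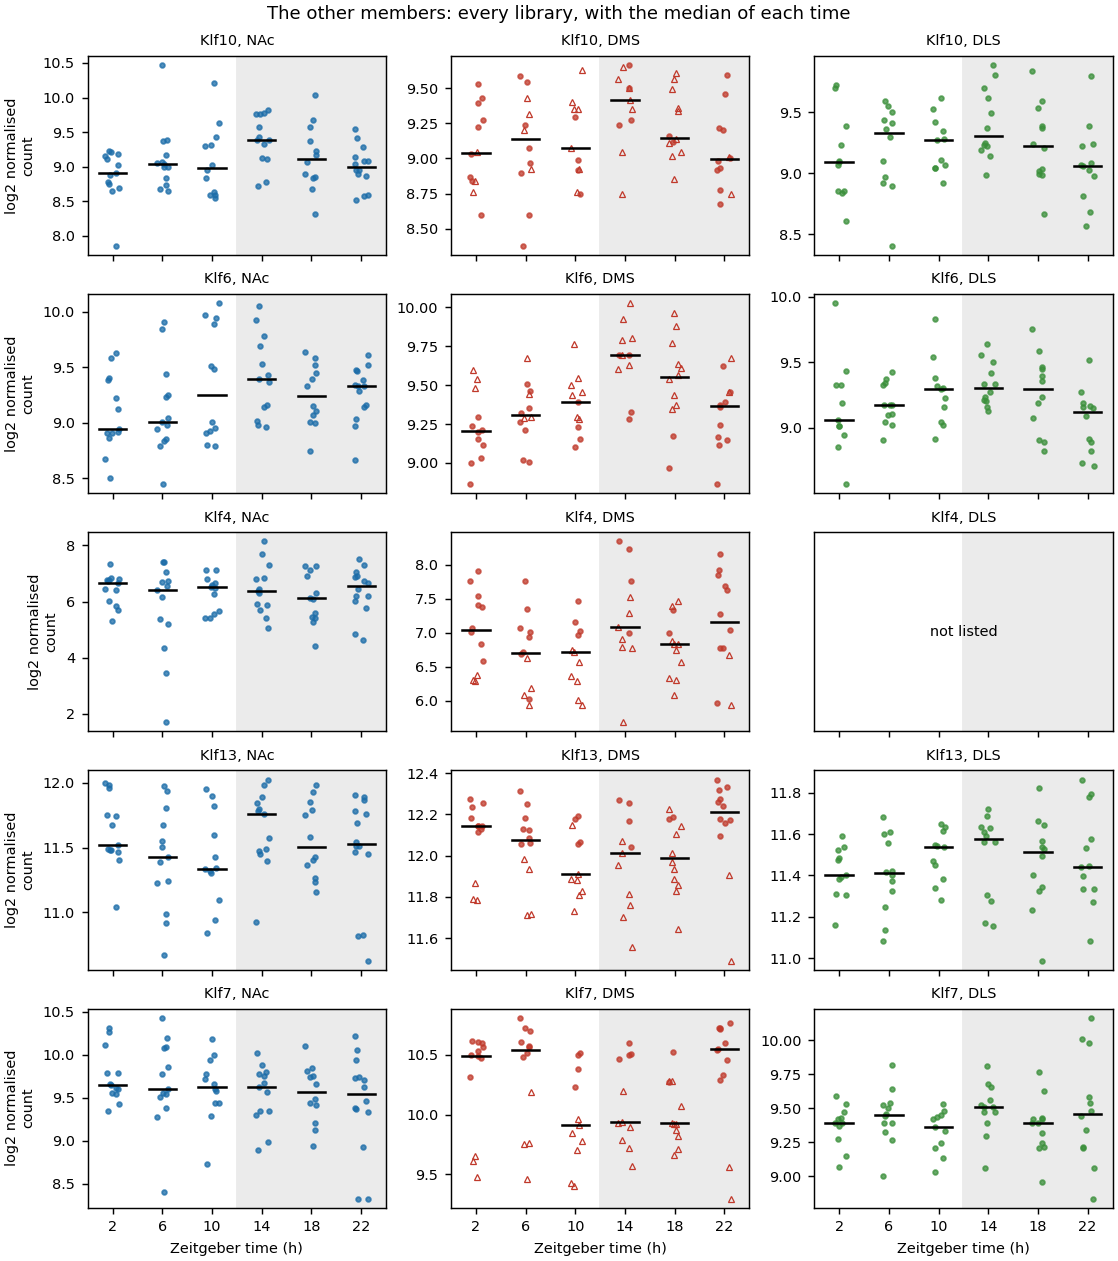
Every library (points) of the other 5 members, as log2 normalised count against Zeitgeber time, with the median of each time (bar), the dark phase in grey and open triangles for DMS libraries of high mitochondrial ribosomal RNA share. In DMS the triangles of Klf7 and Klf13 lie mostly below the filled points at each time, and Klf4 was not listed in DLS.

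Rhythms of the members were not shown to differ between regions. A joint limma fit with region terms found no difference in any of 9 members (0 of 9 at an adjusted p under 0.05 and 0 at an unadjusted p under 0.05, 4 degrees of freedom), where 0.239% of 11283 genes differed, and a block for the animal gave 0 as well (correlation 0.036). The smallest p belonged to Klf16 (0.134 unadjusted). For a check, values were simulated as fitted means plus independent normal noise, without effects shared by a library or an animal. A rhythm of amplitude 0.2 added in DLS alone was recovered for 53% of genes. Differences of the size of most members' amplitudes could thus be missed, and a rhythm in NAc or DMS alone was not simulated.

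Rhythms by sex were not distinguished for any gene: limma called 0 of 11867, 0 of 12101 and 0 of 11394 genes in NAc, DMS and DLS, with 475, 1144 and 1284 at an unadjusted p under 0.05. In a check like that for regions, this test recovered 9, 45 and 30% of genes given an amplitude of 0.2 in NAc, DMS and DLS. At 0.5 it recovered 55, 89 and 86%. Differences between the sexes of the size of most members' amplitudes could thus be missed, above all in NAc. Klf15 in NAc had the smallest unadjusted p of the members (0.00593, adjusted 0.979), with an amplitude of 0.29 ± 0.06 in 37 female and 0.01 ± 0.06 in 40 male libraries. In DMS the amplitudes of Klf15 were 0.18 ± 0.05 in females and 0.22 ± 0.05 in males, and in DLS 0.14 ± 0.06 and 0.14 ± 0.06. Klf7 in DLS followed (unadjusted p 0.0114, adjusted 0.348).
The level of Klf13 was lower in males by 0.10 ± 0.03 in DMS (means 12.00 in 36 males and 12.08 in 34 females, limma adjusted p 0.0353), the only member called of 10, where 4.21% of genes were. This call depended on how the libraries were adjusted. Without the class term the adjusted p was 0.604 and with a block for the animal number 0.0546. With a term for animals numbered 31 or higher in place of the class, 16.5% of all genes passed, and 5 members: Klf13, Klf7 and Klf9 lower in males by 0.15, 0.15 and 0.09, and Klf6 and Klf15 higher by 0.15 and 0.13. In NAc no member differed by sex (0.0758% of genes did; 0 members at an unadjusted p under 0.05), and in DLS none (0.202%; Klf13 and Klf16 at an unadjusted p under 0.05), where Klf16 was higher in males by 0.11 ± 0.03 with an adjusted p of 0.0946. With a block for the animal number Klf16 passed (0.0453), and with libraries scaled to an equal sum its difference was -0.02 (adjusted p 0.815).

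Of the 16 other Klf and Sp genes listed for this comparison, 9 were measured in NAc, 10 in DMS and 9 in DLS. Of these 0, 4 and 3 were rhythmic, against 2.56, 25.2 and 21% of all genes. In DMS these were Sp2 (amplitude 0.23 ± 0.05, peak 0.862 h), Klf12 (0.13 ± 0.03, 21.6 h), Klf11 (0.16 ± 0.04, 6.42 h) and Klf5 (0.15 ± 0.04, 17.9 h), and in DLS Sp4 (0.10 ± 0.02, 2.14 h), Klf5 (0.18 ± 0.04, 12.9 h) and Sp2 (0.15 ± 0.04, 0.081 h). Sp1 and Sp3, the broadly expressed factors that bind the same GC boxes, passed nowhere, with amplitudes of at most 0.05. Klf8, Sp9 and, where listed, Sp8 did not pass either.
Of 11 partners and corepressors, 0, 3 and 2 were rhythmic in NAc, DMS and DLS. These counts lie near the shares over all genes (2.56, 25.2 and 21%). Wwp1, a ubiquitin ligase known to act on Klf2 and Klf5, peaked near lights on in both DMS (0.11 ± 0.02, 23.1 h) and DLS (0.16 ± 0.02, 0.892 h). Sin3b and Ep300 were the others in DMS and Kat2b the other in DLS. The corepressors Sin3a, Ctbp1 and Ctbp2, which Klf9 and Klf3 use, passed nowhere.

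Other lists give the setting of these phases, beside the 2.56, 25.2 and 21% of all genes rhythmic in NAc, DMS and DLS. Of the clock genes and their outputs, 11 of 17 were rhythmic in NAc, 17 of 17 in DMS and 16 of 16 in DLS, and the output gene Dbp peaked at 11.9, 11.8 and 12.2 h, within about 2 h of Klf9. Of the glucocorticoid-responsive genes 4 of 14, 7 of 15 and 6 of 14 were rhythmic, of which 4, 6 and 4 peaked in the dark. Tsc22d3, a classical glucocorticoid target, had peak times of 14.0, 13.9 and 14.6 h and folds of 1.72 (NAc), 1.748 (DMS) and 1.70 (DLS), close in time to Klf15 in DMS and DLS. Of the immediate early genes, induced by neuronal activity, 0 of 15, 10 of 14 and 2 of 15 were rhythmic, all with a peak in the dark. Egr1 among them peaked at 19.1 h in DMS and 18.7 h in DLS, later than Klf2. Dusp1 is in both of the last lists and Per1 in the lists of clock and glucocorticoid genes.

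The genes whose 18 means by region and time (centred within region) were most like each member were found by Pearson r over all genes in the 3 tables, as a description. For Klf9 these were Mapk6 (r = 0.934), Dclk1 (0.932) and Tfdp2 (0.931), for Klf15 Cables1 (0.924), Psmd5 (0.918) and Nbdy (0.914), and for Klf2 Mcl1 (0.911), Tiparp (0.893) and 4833420G17Rik (0.862). Klf3 was most like Kctd10 (0.935), Arhgap20 (0.903) and Ago4 (0.897), and Klf16 most like Gal3st3 (0.947), Htr1d (0.881) and Fam118a (0.867). Among the members themselves Klf2, Klf6, Klf10 and Klf15 had like patterns (r from 0.809 to 0.854 for each pair), and Klf3 ran against Klf9 (-0.841). Many animals gave more than 1 region at a time, so these 18 points are not independent. The DMS means were not adjusted for the class, which was uneven over the day, and its part in these r was not tested.

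After time of day, sex and DMS class were removed, the remainder of some members still went together in different regions of the same mouse. This question, the 28 relations computed for it and their repeats within number ranges were added after seeing the data. Between DMS and DLS (51 animals) Klf10 had an r of 0.718 (rho 0.732, adjusted permutation p 1.40e-04 for r), with 0.793 in 26 animals numbered below 31 and 0.641 in 25 numbered 31 or higher. Of all genes listed in both regions, 0.0616% had an r as high, and the median gene had 0.134. Klf2 followed with 0.597 (rho 0.573, adjusted p 1.40e-04), and 0.724 and 0.523 within the number ranges. Klf13 (0.441, adjusted p 0.0109), Klf9 (0.418, 0.0120) and Klf15 (0.384, 0.0289) also passed, with a permutation p of rho of at most 0.0131 in these 5. An r as high was found in 0.370% of genes for Klf2, 2.50% for Klf13, 3.52% for Klf9 and 5.56% for Klf15. The adjusted p of 1.40e-04 comes from the smallest p that 100000 permutations can give. Klf16 (0.001), Klf3 (0.061), Klf6 (0.204) and Klf7 (0.229) did not pass.
Within the number ranges, adjusted over 56 relations, Klf10 passed in both ranges, Klf2 in the lower (adjusted p 0.00112) but not the higher (0.0707), and Klf13 in the higher (r = 0.626, 0.0192; 0.318 without the 2 farthest animals). Klf9 (0.405 and 0.442) and Klf15 (0.336 and 0.191) passed in neither. Without the 2 animals farthest from the median in DMS, Klf10 had 0.678 and Klf2 0.605. Klf2 also went together between NAc and DMS (r = 0.385, n = 63, adjusted p 0.0109; 0.504 and 0.323 within ranges) and between NAc and DLS (0.346, n = 57, 0.0318; 0.428 and 0.442), and no other member passed in those pairs. In these pairs 1.20% and 1.05% of genes had an r as high as Klf2.

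**Figure D5:**
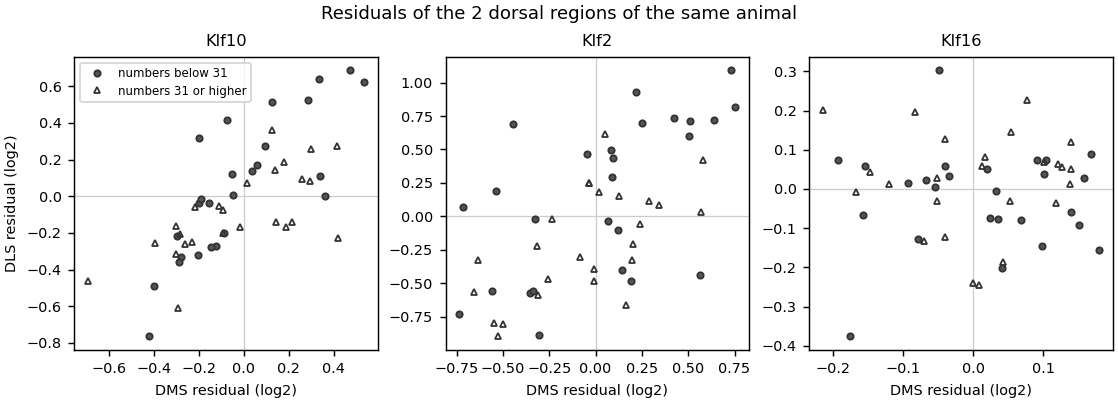
Residual in DLS against residual in DMS (log2, after time, sex and DMS class) for the 51 animals with both regions, with filled circles for numbers below 31 and open triangles for 31 or higher; Klf16 was picked as a contrast after its value was seen. Klf10 and Klf2 rise along the diagonal (r = 0.718 and 0.597) and Klf16 shows no slope (0.001).

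The same remainders were set against the mean of the immediate early genes, again a family of 33 relations added after seeing the data. Klf2 rose with them in DMS (r = 0.614, rho 0.607, n = 70; 0.530 and 0.629 within the low and high class), in DLS (0.572, rho 0.538, n = 70; 0.407 and 0.565 within number ranges) and, less, in NAc (0.347, rho 0.307, n = 77; 0.333 and 0.345), with adjusted permutation p of 1.1e-04, 1.1e-04 and 0.00525. Klf10 did so in DLS (0.617, 1.1e-04; 0.728 and 0.419 within ranges), in DMS (0.344, 0.0102; 0.251 and 0.457 within classes) and in NAc (0.314, 0.0134; 0.159 and 0.617). Klf4 passed in NAc (0.387, 0.00129; 0.469 and 0.255) but not in DMS (0.249, 0.0583), and Klf6 in DLS (0.338, 0.0102; 0.435 and 0.398) but not in NAc (0.038) or DMS (0.114). Over all libraries of a region, the p of rho was at most 0.0155 for those that passed. Within number ranges, relations that passed on r had a p of rho of 0.119 for Klf6 in DLS below 31 and 0.0603 for Klf2 in NAc below 31. Klf2 in NAc at 31 or higher did not pass (rho 0.101), and its r fell to 0.135 without the 2 farthest libraries, as that of Klf2 in DLS below 31 fell to 0.196. Without the 2 libraries farthest from the median of the list, Klf2 had 0.592, 0.555 and 0.322 in DMS, DLS and NAc, Klf10 0.327, 0.638 and 0.251, Klf4 0.331 in NAc and Klf6 0.338 in DLS. These genes share library, depth and tissue with the members, and their part in the relations was not tested. The share of all genes with an r as high was not computed for this list or for the glucocorticoid-responsive genes. Whether these relations are particular to the members is therefore unknown.
With the glucocorticoid-responsive genes (18 relations, also added), Klf15 passed in NAc (0.391, rho 0.346, adjusted p 0.00369; 0.485 and 0.260 within ranges), DMS (0.320, rho 0.297, 0.0191; 0.190 and 0.460 within classes) and DLS (0.324, rho 0.305, 0.0191; 0.141 and 0.408 within ranges). Klf9 passed in NAc (0.343, rho 0.309, 0.00945; 0.236 and 0.614) and not in DMS (0.229, 0.0899) or DLS (0.227, 0.0899). Over all libraries of a region, the p of rho was at most 0.0131 for those that passed, and without the 2 farthest libraries Klf15 had 0.319, 0.261 and 0.303 in NAc, DMS and DLS and Klf9 0.392 in NAc. The r of Klf9 in NAc at numbers of 31 or higher (rho 0.443) was 0.313 without the 2 farthest. In all, 150 relations across libraries were computed, each family adjusted on its own.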

How the data were processed

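Gene levels were measured by stranded total RNA sequencing (paired reads of 75 bp, 40 M reads targeted per library). Per the labels, reads were aligned to mouse GRCm38 with HISAT2 2.1.0 and counted per gene with HTSeq 0.10.0. The submitters' processing notes also name FastQC and Trimmomatic, and a human build, GRCh38, which contradicts the mouse labels and identifiers. Use of the strand in counting is not given in the sources used here. The deposited values are log2 of counts that the authors filtered and normalised with DESeq2 for each region separately, per the labels. In DMS and DLS every value is log2 of a normalised count plus 1, and whole reads could be recovered for 100% of values in every library (checked below 2000 reads, tolerance 0.01 reads). In NAc whole reads could be recovered in 0 of 77 libraries, and 9 values were below 0. Errors are those between libraries, since reads with no molecular identifier do not count molecules.

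Gene symbols came from GENCODE M21 (11842, 12073 and 11371 genes). No filter was added and 0 columns were left out. limma 3.58.1 (R 4.3.3, the data.table package, 1.17.8) with a variance trend was fitted to all genes of a region, with cosine, sine and sex, and the class in DMS. Levels by sex used time as 6 levels. Adjustment was by Benjamini-Hochberg over all listed genes. Relations and figures used Python 3.11.15, pandas 2.3.3, numpy 2.4.6, scipy 1.17.1 and matplotlib 3.10.9. Relations were tested by two-sided permutation (100000 resamples). Tested on simulated data, the rhythm fit recovered 56, 83 and 79% of genes given an amplitude of 0.2 in NAc, DMS and DLS, and 94, 99 and 100% at 0.5.

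All 10 members are named, with full values for those rhythmic in at least 2 regions; of each list, up to 3 genes of smallest p. The members, lists and the DMS class were chosen with earlier results of these data known. Regions of 1 animal are paired by the animal's label (median correlation of deviations 0.08, 0.04 and 0.12 in 63, 57 and 51 animals), and the region fit was repeated with the animal as a block. A cortical marker is not reported here, and the cortical sum leaves it out.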

Additional observations from a re-analysis of the deposited data

How the results depend on the processing

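The count of rhythmic members stayed within 1.5 times of the reported value in 5 of 11 alternatives in NAc, 13 of 16 in DMS and 10 of 14 in DLS. Of the members' calls, 13 rhythms and 1 sex difference, 0 changed direction. Of results that did not pass, 10 of 28 sex differences changed sign and 5 of 16 peaks moved by over 6 h under at least 1 alternative. The count of rhythmic members in NAc (1, Klf9) was 0 with time as 6 levels, with libraries scaled to an equal sum, in females alone, in males alone, and with the cortical or the endothelial marker sum as a covariate (both added after seeing the data), and 0 to 1 when leaving out each library in turn. In DMS (7) it was 3 in females alone, 2 in the low-share class alone and 4 in the high-share class alone, and 6 to 7 when leaving out each library. In DLS (5) it was 0 with an equal sum, 2 (Klf2 and Klf3) with an equal sum and without male ZT6 number 13 (added after seeing the data), 3 in females alone and 1 in males alone, and 4 to 6 when leaving out each library. Fits to fewer libraries have less power. Klf6 in DMS also lost its call with an equal sum (adjusted p 0.121) and with the cortical sum (0.0965), and Klf4 with the number range term (0.230). The cortical sum in DMS is Slc17a7 alone, since Tbr1 was not listed there. Scaling to an equal sum moved the median dark minus light difference of all genes by -0.08, -0.11 and 0.05 (log2; NAc, DMS, DLS), and rhythmic genes numbered 108 in place of 304 in NAc and 217 in place of 2392 in DLS (2248 without male ZT6 number 13); the cause was not tested. Without the class term 6207 genes in place of 3051 were rhythmic in DMS, and 948 and 1811 in the low and high class alone. In NAc 183 were rhythmic with time as 6 levels and 508 with the mitochondrial share as a covariate, and the sexes alone gave 53 (females) and 31 (males) in NAc, 1267 and 1178 in DMS and 1308 and 730 in DLS.

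Numbers are given to each sex separately, so mice of different sex that share one are different animals. Of pairs that share a number, 7 of 26, 0 of 25 and 7 of 24 in NAc, DMS and DLS had a correlation of deviations over 0.1. The median correlations were -0.13, -0.17 and 0.05, so in DLS this check does not show that such mice are unrelated. With a block for the number (correlation -0.02, -0.06 and 0.15) the counts of rhythmic members stayed at 1, 7 and 5 in NAc, DMS and DLS. The sex difference of level in DMS went from 1 member to 0 with this block, 0 without the class term and 5 with the number range term (509 and 1995 genes in all with the class and the range term), and in DLS from 0 to 1 (Klf16, adjusted p 0.0453) with the block. The animal block changed no call between regions. The pseudocount alternative was not run in NAc, whose values are not log2 of a count plus 1. Klf2 and Klf4 rest on few reads (medians of 192 and 135 in DMS), which limits their precision. In DLS Klf2 had a median of 137 reads (33 to 383), and the lowest library had 46 for Klf10 and 52 for Klf15.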
